A study of Mus musculus with 3 samples.

Results

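The Igkv genes are the variable segments of the mouse immunoglobulin kappa light chain locus. All 160 genes of the deposited tables whose symbol starts with Igkv were taken, of 30905 genes in all. The annotation types 100 of them as V genes and 60 as pseudogenes, in 20 families. The cells were CD45+ leukocytes of C57BL/6 mouse colon, purified by flow cytometry and sequenced from transcript 3′ ends in droplets. Library C came from healthy colon. Libraries T1 and T3 came from colon with low-grade and high-grade intraepithelial neoplasia of mice given azoxymethane (AOM, a carcinogen) at 12 mg/kg into the peritoneum and then 3 cycles of dextran sodium sulfate (DSS, which injures the colon lining) at 2.5%, each with DSS for 7 days and water for 14 days. The labels put the start of the model at 6 to 8 weeks of age. Each group is 1 library, and the number of mice in it is not given. No difference between libraries could therefore be checked against replicates or tested. AOM and DSS treatment and neoplasia cannot be told apart in a comparison with C.

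A developing B cell joins 1 V segment to 1 joining (Igkj) segment, and the joined exon is spliced to the single kappa constant exon, Igkc. The V segment encodes most of the light chain's antigen-binding domain. Because a B cell normally keeps 1 productive light chain, the V segment in its transcripts marks its clone, although many unrelated clones use the same segment. Germinal centre B cells mutate these exons and are selected on them, and plasma cells, many of which make IgA in the gut, transcribe the joined gene at very high levels.

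The segments lie on chromosome 6 of GRCm38 between 67555497 and 70704177, a span of 3.15 Mb, 75 on the plus and 85 on the minus strand. The V exons resemble one another, and the identity of a V gene to its most similar V gene has a median of 94.2% and a range of 65.6% to 99%. The sequences below are the reference V exons of the segments on which the results turn, from GENCODE M21, 5′ to 3′ on the coding strand, each beside a close relative of its family. Capitals mark the bases at which the 2 of a pair differ. The first pair is Igkv10-96, on the minus strand at chr6:68631963-68632260, and Igkv10-94, on the minus strand at chr6:68704508-68704805. They differ at 16 of 298 bases and are 94.6% identical. Igkv10-94 is the most similar segment to Igkv10-96, whereas that of Igkv10-94 is Igkv10-95 (97% identical), which 2 other B barcodes and no plasma, germinal centre B or IgD-positive B barcode were assigned to.
Igkv10-96: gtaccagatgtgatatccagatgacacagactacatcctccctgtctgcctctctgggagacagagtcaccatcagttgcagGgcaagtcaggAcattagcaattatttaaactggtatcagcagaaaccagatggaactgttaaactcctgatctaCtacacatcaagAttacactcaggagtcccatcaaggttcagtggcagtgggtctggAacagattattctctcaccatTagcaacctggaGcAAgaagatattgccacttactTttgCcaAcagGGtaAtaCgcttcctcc
Igkv10-94: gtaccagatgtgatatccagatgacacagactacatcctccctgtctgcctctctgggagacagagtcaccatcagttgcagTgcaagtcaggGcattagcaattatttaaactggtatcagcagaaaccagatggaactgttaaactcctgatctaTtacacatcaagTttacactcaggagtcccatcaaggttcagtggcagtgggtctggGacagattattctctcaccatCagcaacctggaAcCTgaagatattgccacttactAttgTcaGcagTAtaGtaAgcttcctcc
The second pair is Igkv1-117, on the plus strand at chr6:68121528-68121827, and Igkv1-110, on the plus strand at chr6:68270968-68271267. The exons have 313 bases, of which the 300 at the 3′ end are shown. They differ at 10 bases, all within the part shown, and are 96.8% identical.
Igkv1-117: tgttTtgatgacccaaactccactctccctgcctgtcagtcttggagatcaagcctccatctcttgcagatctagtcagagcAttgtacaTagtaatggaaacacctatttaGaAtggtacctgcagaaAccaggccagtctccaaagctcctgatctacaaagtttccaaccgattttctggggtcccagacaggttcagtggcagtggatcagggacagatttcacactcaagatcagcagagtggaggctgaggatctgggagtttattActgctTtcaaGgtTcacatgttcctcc
Igkv1-110: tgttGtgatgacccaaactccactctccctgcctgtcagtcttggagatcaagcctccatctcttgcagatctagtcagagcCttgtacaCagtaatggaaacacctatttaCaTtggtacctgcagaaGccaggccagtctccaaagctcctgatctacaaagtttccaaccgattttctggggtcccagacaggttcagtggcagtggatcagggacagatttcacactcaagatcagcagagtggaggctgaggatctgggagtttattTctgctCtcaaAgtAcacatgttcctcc
The last 60 bases, next to the joining segment, hold 10 of the 16 differing bases of the first pair and 4 of the 10 of the second. Counts of such close segments are uncertain where a read could match both, and mutated exons add to this.

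Barcodes with at least 200 genes, at most 20% mitochondrial UMIs (unique molecular identifiers, here counted transcripts) and no UMI of the CD3 genes Cd3d, Cd3e or Cd3g were classed in order. Plasma barcodes held at least 20 UMIs of Jchain, which encodes the joining chain of secreted IgA and IgM. Of the remaining barcodes with Cd79a or Ms4a1, germinal centre B barcodes held at least 2 of 5 germinal centre genes, among them Rgs13, Mef2b, S1pr2 and Gcsam, and no Ighd UMI, IgD-positive B barcodes held Ighd, the constant gene of IgD, and the rest are called other B. Libraries C, T1 and T3 gave 88, 56 and 5 plasma barcodes, 100, 77 and 6 germinal centre B barcodes, 2120, 2287 and 649 IgD-positive B barcodes, and 401, 612 and 361 other B barcodes. Each barcode was assigned to the Igkv gene with most UMIs, and a tie left it unassigned. T3 held too few plasma and germinal centre B barcodes for a comparison, with 3 and 4 assigned.

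Several facts of the libraries touch these classes. The 3 libraries held 7903, 8566 and 5779 barcodes with 35489195, 37208603 and 15898397 UMIs, and 35 to 39 barcodes were shared by each pair of libraries, 2 to 5 of them of the B lineage. The labels call the mice male, whereas Xist gave 23366 to 51332 UMIs and Y-linked genes 1 UMI in each library. Scrublet called 69 of 6004, 3 of 6143 and 1 of 4543 barcodes as doublets. The calls of T1 and T3 are too few to rely on for libraries of this size, so none were removed and doublets may remain. Igkv UMIs numbered 3366, 2809 and 296, and the barcodes that the CD3 rule left out although they held a B gene or Jchain carried 30.2%, 26.6% and 33.1% of them. Haemoglobin genes, which mark red blood cells, summed to 694 CPM (each gene's UMIs scaled to a fixed total over the class) in IgD-positive B barcodes of T3, against 4.54 in C and 3.77 in T1.

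The plasma class is mixed in C. Of its 88 barcodes, 25 also held at least 2 of the germinal centre genes. All 25 had Ms4a1, none had Sdc1 (syndecan-1, a plasma cell surface marker), their median was 26 Jchain UMIs, and 40% were assigned. Of the other 63 barcodes 54 had Sdc1, the median was 948 Jchain UMIs, and 85.7% were assigned. In T1 only 9 of 56 plasma barcodes held at least 2 germinal centre genes, and 77.8% of these were assigned, against 87.2% of the other 47. Of plasma barcodes with at least 100 Jchain UMIs, 43 of 45 were assigned in each library (95.6%). All 8 germinal centre markers were found in plasma barcodes of both libraries, summing to 576 CPM in C and 170 in T1, so the plasma comparisons of C and T1 also compare different mixtures. Alternatives that put the germinal centre genes before Jchain, or took plasma barcodes from 100 Jchain UMIs, were computed. Under both, the counts past the rule and the effective numbers stayed close to those reported below. The shares of barcodes assigned are not part of that statement. What lies behind the differences between C and T1 was not tested. The 7 T cell markers summed to 11.3 and 27.2 CPM, with Cd3d, Cd3e and Cd3g at 0 by the rule.

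Igkv UMIs were concentrated in plasma barcodes in C and T1. They held 1624 of the 3366 Igkv UMIs of C (48.2%) and 1278 of 2809 in T1 (45.5%). For each Igkv UMI they held 282 Igkc UMIs in C and 253 in T1. The reads came from transcript 3′ ends, and the V exon lies 5′ of Igkc. Shares and counts of Igkv here and below therefore describe detected V exons and are not levels of kappa expression. A segment without UMIs may still be in use. In T3 plasma barcodes held 34 of 296 (11.5%), 24 of them in 1 barcode, against 98 (33.1%) in IgD-positive B barcodes. An Igkv segment was assigned to 64 of 88 plasma barcodes in C (72.7%, exact 95% interval 62.2% to 81.7%), to 48 of 56 in T1 (85.7%, 73.8% to 93.6%) and to 3 of 5 in T3. The intervals here and below are Clopper-Pearson intervals and cover counting error only. Among germinal centre B barcodes the share was 33% in C and 27.3% in T1. Among IgD-positive B barcodes it was 17.6% in C, 17.0% in T1 and 12.5% in T3. T barcodes, which have CD3 but no B gene and should not transcribe Igkv, gave 0.8%, 1.92% and 0.276%.

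The classes also differed in depth. In C the median barcode held 20060.5 UMIs for plasma, 10120 for germinal centre B, 4681.5 for IgD-positive B and 5733.5 for T. After each barcode was thinned to 1000 UMIs, 33.3% of plasma barcodes were assigned in C and 52.8% in T1. The thinned shares were 5.05% and 3.95% for germinal centre B and 3.89%, 4.54% and 3.61% for IgD-positive B in C, T1 and T3. T barcodes fell to 0.222%, 0.676% and 0.11%. The thinned germinal centre B and IgD-positive B shares overlap within their intervals and lie above the T barcodes in every library.

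**Figure D1:**
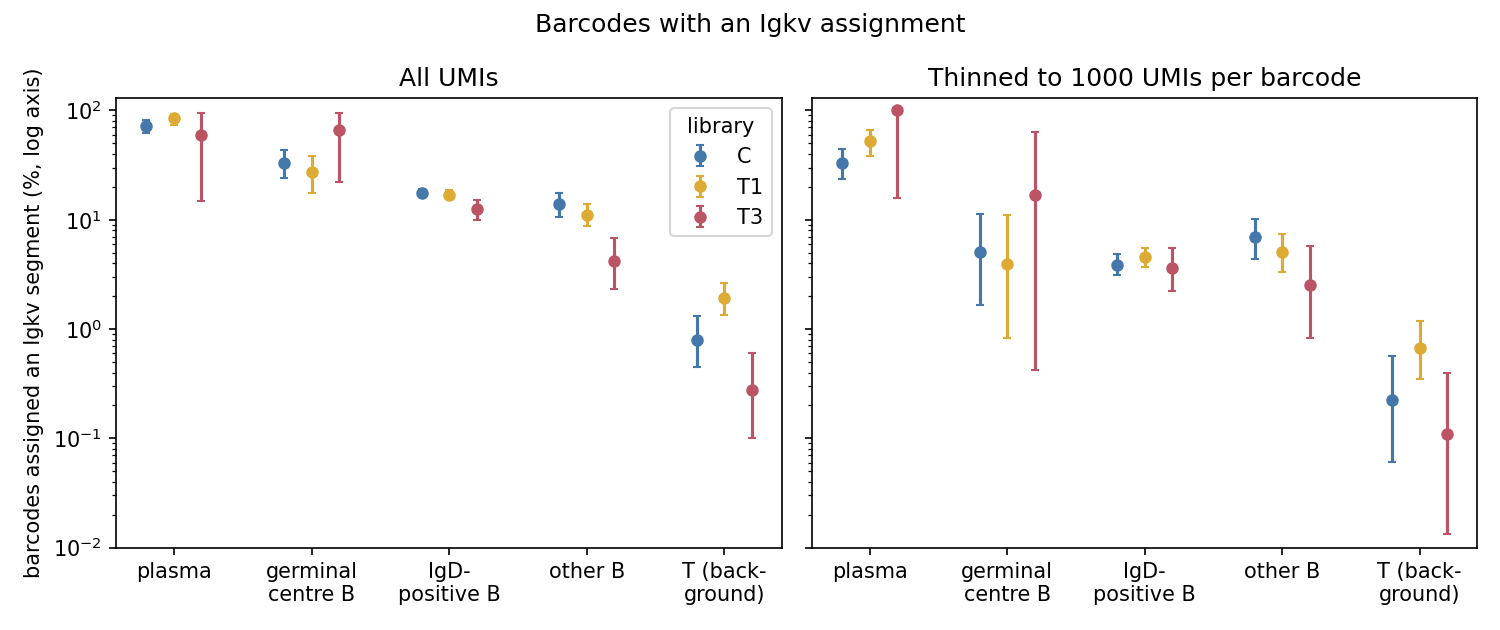
Share of barcodes assigned an Igkv segment (y, percent, log axis) by class (x) and library (colour), from all UMIs (left) and after thinning to 1000 UMIs (right). Points are shares and bars exact 95% intervals for counting error. Plasma barcodes stand highest in C and T1 (72.7% and 85.7%) and T barcodes lowest.

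Plasma barcodes with many Igkv UMIs were mostly led by 1 segment. The assignment rested on 1 UMI in 12 of 64 assigned plasma barcodes of C (18.8%) and 4 of 48 of T1 (8.33%). The leading segment had a median of 15 UMIs in C (range 1 to 185) and 17 in T1 (1 to 167). Of the barcodes with at least 10 UMIs of their leading segment, 38 in C and 33 in T1, the leading segment made up at least 95% of the Igkv UMIs in 30 and 23. A second segment of 3 or more UMIs was seen in 5 barcodes of C and 3 of T1. In IgD-positive B barcodes the assignment rested on 1 UMI in 89.3% of cases in C, 89.7% in T1 and 88.9% in T3, so their segment use is known from many barcodes and little from any 1 of them. Of the plasma barcodes without an Igkv UMI, 22 in C and 8 in T1, 4 and 3 held more lambda than kappa constant UMIs.

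**Figure D2:**
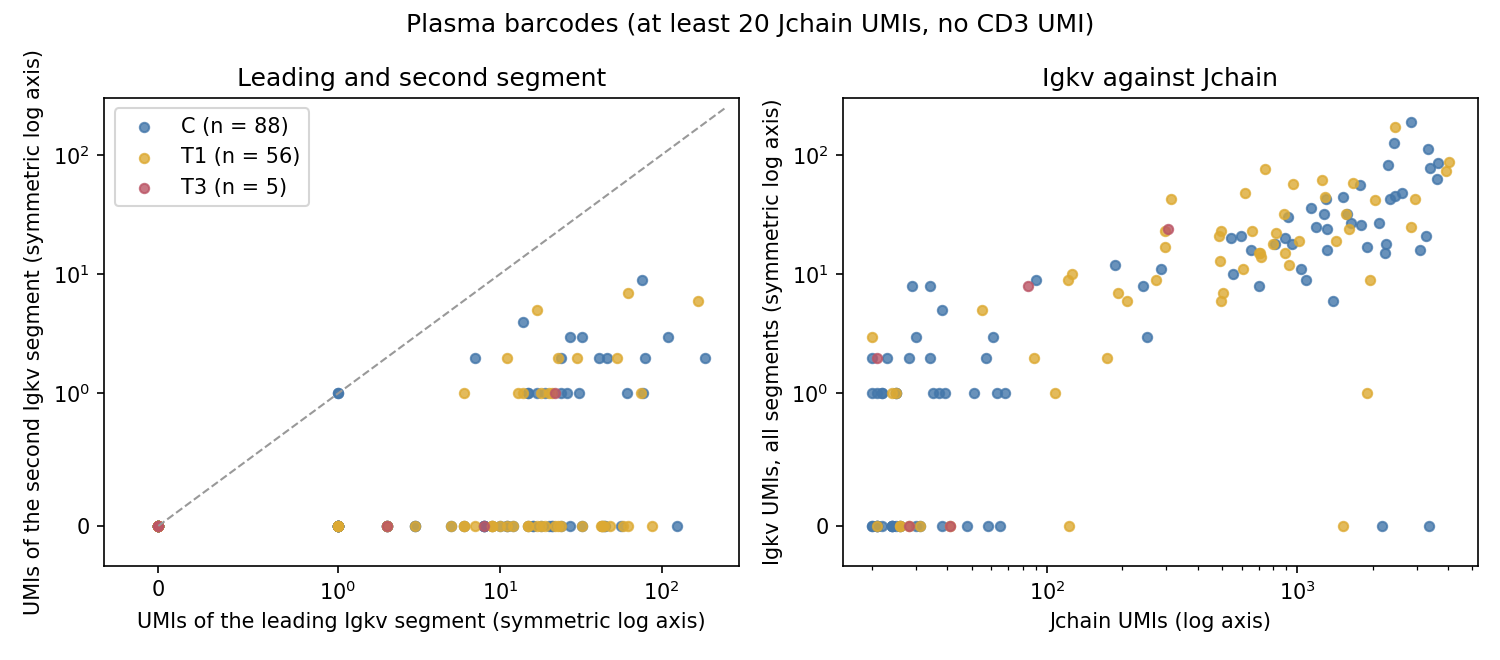
Each point is a plasma barcode. Left, UMIs of the leading against the second Igkv segment, with the dashed line at equality. Right, all Igkv UMIs against Jchain UMIs. The second segment stays under 10 UMIs in every barcode while the leading one reaches 185, and most barcodes without Igkv UMIs have under 100 Jchain UMIs.

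Use was broad in every class. Over the 1154 assigned B-lineage barcodes, 87 of the 100 V genes were used, and the 10 most used took 39.6% of the barcodes. Only 19 barcodes (1.65%) went to pseudogenes, 9 of the 60. No UMI was found for 52 of the 160 genes, 8 V genes and 44 pseudogenes, and Igkj1 to Igkj5 had none either. The effective number of segments, the number of equally used segments that would give the observed chance that 2 barcodes match, was 46.9 in plasma barcodes of C and 40.3 in T1. It was 19.6 and 42 in germinal centre B barcodes and 42.5, 42.3 and 31.2 in IgD-positive B barcodes of C, T1 and T3. The germinal centre B values rest on few assigned barcodes, 33 over 22 segments in C and 21 over 16 segments in T1. In C 7 of the 33 held Igkv1-117, and in T1 the value exceeds the number of barcodes. No intervals were computed for the effective numbers, so the germinal centre B values do not part C from T1.

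Assigned barcodes were unevenly spread along the locus. Split by order into 3 parts, the 54 genes farthest from the joining segments (30 V genes) took 46.4% of the assigned barcodes and the 53 nearest (42 V genes) 43.8%. The middle 53 (28 V genes, 24 of them of family Igkv4) took 9.71%. In IgD-positive B barcodes the middle part took 9.65% in C, 9.79% in T1 and 8.64% in T3. In plasma barcodes it took 12.5% (5.55% to 23.2%) in C and 16.7% (7.48% to 30.2%) in T1. The mean was 3.75 barcodes per V gene in the middle part against 17.7 and 11.9 in the farthest and nearest. The median identity of a V gene to its most similar V gene was 95.2% in the middle part against 91.6% and 94.5%. Over the locus the 12 V genes of at least 97% identity had a median of 5.5 barcodes and the other 88 a median of 5. Whether reads that match several segments were lost in the middle part was not tested.

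**Figure D3:**
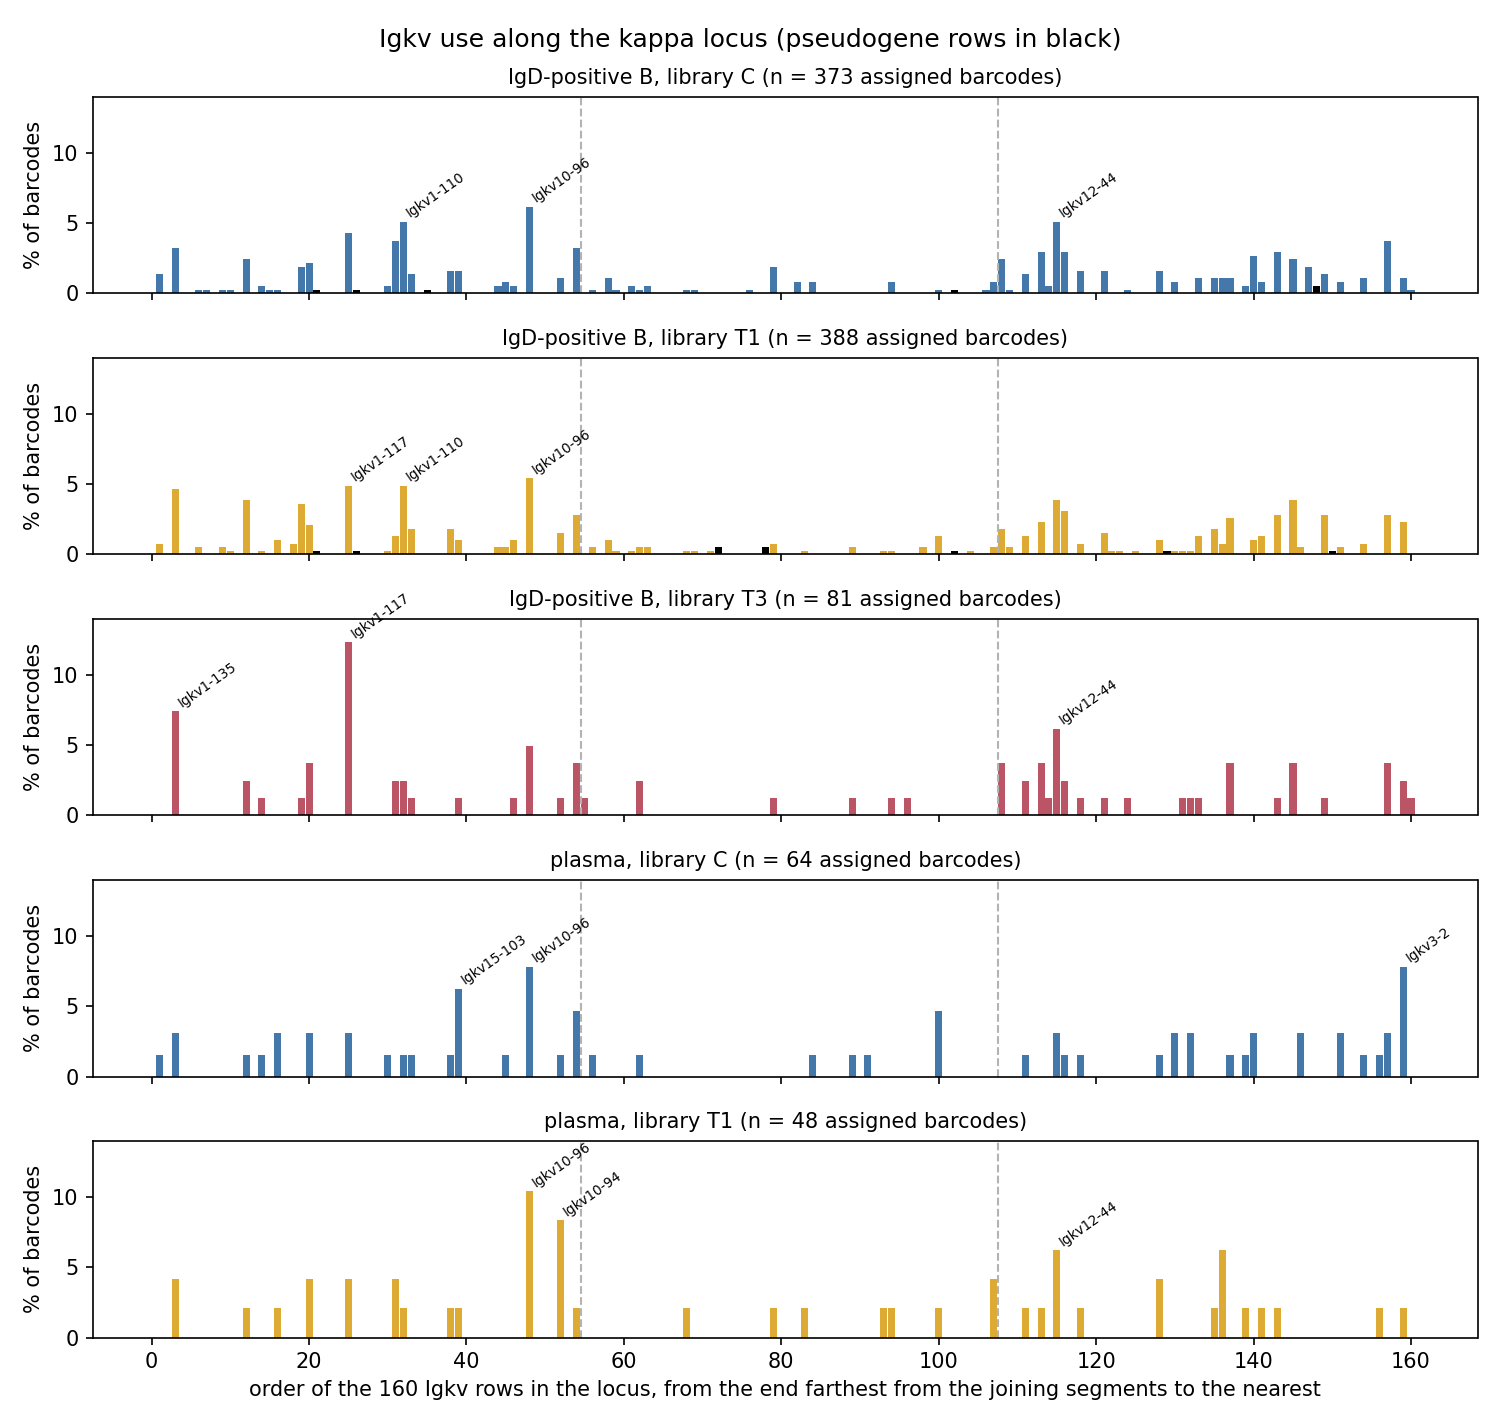
Share of assigned barcodes (y, percent) for each of the 160 Igkv genes in locus order (x), for IgD-positive B barcodes of C, T1 and T3 and plasma barcodes of C and T1. Dashed lines separate the 3 parts and the names mark the 3 highest bars of each panel (ties by order). The middle part is low in all 5 panels.

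In IgD-positive B barcodes Igkv10-96 led in both C and T1, with 23 of 373 barcodes in C (6.17%, 3.95% to 9.11%) and 21 of 388 in T1 (5.41%, 3.38% to 8.15%). Igkv1-110 had 19 barcodes in each, 5.09% and 4.9%. Igkv12-44 had 19 and 15, 5.09% and 3.87%. A segment was taken as different when its shares were at least 2-fold apart, at least 10 barcodes held it and the exact interval of the ratio excluded 1. None of the 29 segments with enough barcodes did so (0%). The nearest was Igkv14-111, named after its values were seen, with 14 barcodes in C and 5 in T1 (ratio 0.343, 0.0968 to 1.01). Across the 100 V genes, which are not independent replicates, the shares in the 2 libraries had a Pearson r of 0.87.

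In T3 Igkv1-117 led instead. It was held by 10 of 81 IgD-positive B barcodes (12.3%, 6.08% to 21.5%), against 16 of 373 in C (4.29%) and 19 of 388 in T1 (4.9%). The ratio was 2.88 (1.17 to 6.75) to C and 2.52 (1.05 to 5.7) to T1. It was the 1 segment past the rule among 16 compared with C (6.25%) and among 18 compared with T1 (5.56%), and both comparisons share the T3 barcodes. Its close relative Igkv1-110 had 2 barcodes in T3 (2.47%). Of the 81 barcodes, 56 held a haemoglobin UMI, and 8 of the 10 with Igkv1-117 were among them. Without them Igkv1-117 was held by 2 of 25 barcodes (8%, 0.984% to 26%), with a ratio of 1.93 (0.214 to 8.3) to C and 1.6 (0.181 to 6.65) to T1, and no segment was past the rule in either comparison. Other markers also differed in this class. The 7 T cell markers summed to 70.6 CPM in T3 against 39.1 in C and 30.1 in T1, with Cd3d, Cd3e and Cd3g at 0 by the rule. In summed UMIs 2 of the 3 compared with C (Trac and Trbc1) and 3 of 3 compared with T1 were past the rule. Over all genes 3.98% were past it against C and 3.27% against T1. The 8 germinal centre markers summed to 44.4 CPM in T3, near the 47.2 of T1, and to 71.8 in C. In T3 2 of the 3 compared with C (Rgs13 and Mef2b) and 1 of the 2 compared with T1 were lower. The part of haemoglobin and of these markers in the result was not tested.

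Igkv1-117 also led germinal centre B barcodes of C, with 7 of 33 (21.2%, 8.98% to 38.9%) against the 4.29% of IgD-positive B barcodes in the same library (ratio 4.95, 1.72 to 12.7). It was the 1 segment past the rule of 15 (6.67%). Igkv1-117 also led the other B barcodes of C, with 7 of 56 (12.5%, 5.18% to 24.1%). That interval overlaps the germinal centre B one and also that of IgD-positive B barcodes of C (2.47% to 6.87%). Other B barcodes were not compared with another class by segment. Whether the high share in C was particular to germinal centre B barcodes is therefore not decided. In other B barcodes of T1 Igkv1-117 was held by 3 of 68 (4.41%). Each of the 7 germinal centre B barcodes of C held 1 UMI of Igkv1-117, and in 6 of them no heavy chain variable segment was assigned. Their isotypes differed, since 2 had no or 1 Ighm UMI and 15 to 23 Ighg UMIs, and 3 had 12 to 27 Ighm UMIs and at most 1 Ighg UMI. In T1 it was held by 2 of 21 germinal centre B barcodes (9.52%, 1.17% to 30.4%), and none of 14 segments was past the rule there (0%). Of the haemoglobin genes only Hbb-bt was found in germinal centre B barcodes of C (87.2 CPM) and T1 (57.2 CPM), whereas IgD-positive B barcodes of T3 held all 4. Without the barcodes that held Hbb-bt, Igkv1-117 was in 3 of 24 in C (12.5%, ratio 3.02, 0.56 to 10.7) and the count of segments past the rule was 0. Leaving them out also made the class smaller, from 33 assigned barcodes to 24. The part of Hbb-bt in the result was not tested. Germinal centre B barcodes of T1 and C could not be compared by segment, as no segment reached 10 barcodes.

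Igkv10-96 led plasma barcodes of T1, with 5 of 48 (10.4%, 3.47% to 22.7%). In C it tied for the lead with Igkv3-2, each with 5 of 64 (7.81%, 2.59% to 17.3%). The 5 Igkv10-96 barcodes of C held 61, 27, 8, 2 and 1 UMIs of it. All 5 had Igha, the IgA constant gene, as the leading heavy constant gene. In T1 they held 87, 58, 43, 15 and 11 UMIs, 4 with Igha and 1 with Ighg2c. The 5 barcodes of T1 had 5 different heavy chain variable segments, as had the 4 of C in which one was assigned, so the shared light segment did not come with a shared heavy segment. Igkv10-96 was the only segment with 10 barcodes over both libraries, and its ratio of T1 to C was 1.33 (0.307 to 5.79), not past the rule (0 of 1, 0%).

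Other plasma segments differed in their counts. Igkv3-2 was held by 5 barcodes of C, with 31, 21, 20, 19 and 5 UMIs, and by 1 of T1, with 1 UMI. Of the 5 of C, 2 share the heavy segment Ighv8-8. The barcode of T1 held 27338 lambda against 48 kappa constant UMIs, so its 1 UMI says little about its light chain. Igkv15-103 was held by 4 of C, with 79, 77, 12 and 1 UMIs, and by 1 of T1, with 9. Igkv10-94 was held by 4 of T1, with 18, 15, 13 and 11 UMIs, and by 1 of C, with 7. These counts are too low to part the libraries.

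Within T1, Igkv10-94 made up 4 of 48 plasma against 6 of 388 IgD-positive B barcodes (8.33% against 1.55%, ratio 5.39, 1.12 to 22.7), the 1 segment past the rule of 18 (5.56%). Of the 4 barcodes 2 share the heavy segment Ighv5-16, and counted once they leave 3 of 46 against 6 of 387 (ratio 4.21, 0.681 to 19.7), which is 9 barcodes and under the 10 that the rule needs. With plasma barcodes kept whatever their CD3 UMIs it was 4 of 71 against 6 of 388 (ratio 3.64, 0.756 to 15.4), not past the rule. In C none of 15 segments was past the rule (0%). By family, a grouping added after values were seen, Igkv10 took 9 of 48 plasma against 27 of 388 IgD-positive B barcodes in T1 (ratio 2.69, 1.11 to 5.9), 1 of 13 families past the rule (7.69%). The 9 include the 2 barcodes that share Ighv5-16, and the family ratio was not computed with them counted once. In C the family took 6 of 64 against 27 of 373 (ratio 1.3, 0.437 to 3.2), and none of 14 families was past the rule (0%).

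**Figure D4:**
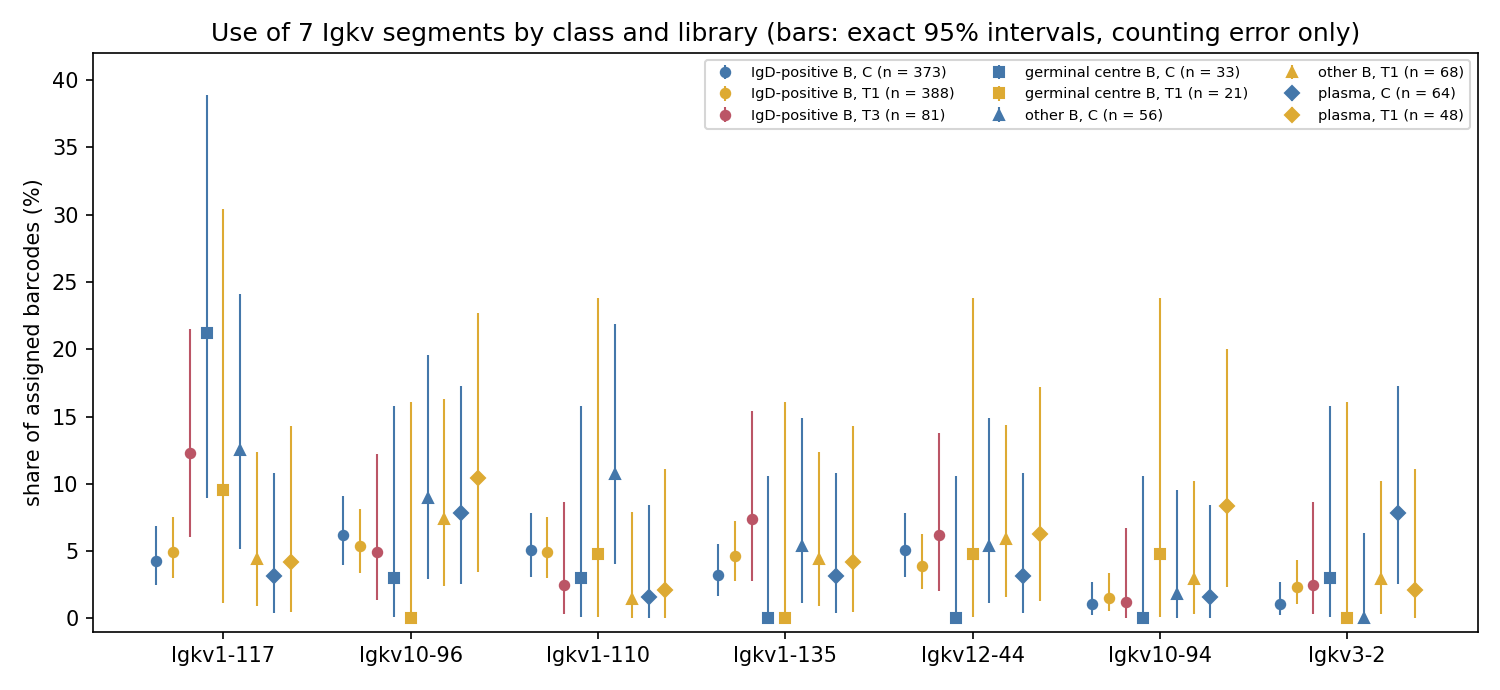
Share of assigned barcodes (y, percent) of 7 Igkv segments (x) by class (marker) and library (colour), for classes with at least 20 assigned barcodes. Points are shares and bars exact 95% intervals for counting error. Igkv1-117 is highest in germinal centre B barcodes of C (21.2%), and most intervals overlap.

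Light and heavy segments were rarely repeated together. In C, 53 plasma barcodes had both assigned, in 51 different pairs, and in T1 48 had both, in 46 pairs. The repeated pairs were Igkv3-2 with Ighv8-8 and Igkv6-14 with Ighv1-9 in C, and Igkv1-117 with Ighv1-81 and Igkv10-94 with Ighv5-16 in T1, each in 2 barcodes. The 2 Igkv3-2 barcodes held 11525 UMIs each. Ighv8-8 was held by 7 of the 53 barcodes of C with 6 different Igkv segments. The leading heavy constant gene was Igha in 61 of 88 plasma barcodes of C and 43 of 56 of T1.

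Summed over plasma barcodes, most Igkv genes drew the larger part of their UMIs in a library from 1 barcode. Of 8 Igkv genes with at least 100 UMIs, 3 were at least 2-fold higher in T1 than in C and 5 lower, with the interval excluding no difference, where 11% of all 2133 genes differed. A segment could reach 100 UMIs through a few barcodes of 1 library and then had to differ, so this count describes those barcodes and is not read against the other genes. Igkv12-44 was at 230 CPM in T1 and 41.9 in C (log2 ratio 2.45), with 68.2% of its T1 UMIs and 97.4% of its C UMIs from 1 barcode. Igkv10-96 was at 209 CPM in T1 and 54.8 in C, with 39% of its T1 and 59.8% of its C UMIs from 1 barcode. Igkv1-117 was at 103 CPM in T1 and 21 in C, with 56.4% and 82.1% from 1 barcode. Igkv3-7 had 125 UMIs in C, all from 1 barcode, and 0 in T1, and Igkv3-4 had 194 in C, 95.4% from 1 barcode, and 0 in T1. Igkv1-135, Igkv15-103 and Igkv3-2 were lower too, at 21.6, 8.43 and 9.37 CPM in T1 against 59.6, 91.3 and 53.2 in C. In C 1 barcode gave 98.2% of the Igkv1-135 UMIs, but 46.5% of the Igkv15-103 and 31.3% of the Igkv3-2 UMIs, which were spread over 5 and 6 barcodes. In IgD-positive B barcodes no Igkv gene reached 100 UMIs, where 0.967% of all genes differed between T1 and C, 3.98% between T3 and C and 3.27% between T3 and T1, and the same held in germinal centre B barcodes (1.51%).

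Other genes of the light chain pathway were taken from lists. Igkc, shared by every kappa chain, was at 246000 CPM in plasma barcodes of C and 303000 in T1 (log2 ratio 0.30) and was not past the rule. It was at 7530, 6160 and 6410 CPM in IgD-positive B barcodes of C, T1 and T3. Over all 2133 genes compared in plasma barcodes of T1 and C, 11% were past the rule, 21 higher and 213 lower in T1. Of 5 lambda genes with enough UMIs, 3 were higher in T1, Iglc1 (log2 ratio 1.14), Iglv1 (1.5) and Iglv3 (1.82). The median log2 ratio of the 5 was 1.14 against -0.31 for all genes. These genes rest on few barcodes, as 4 plasma barcodes in each library held more lambda than kappa constant UMIs. In each library 1 barcode held most Iglc1 UMIs, 94.8% in T1 and 89.1% in C. Without the barcode richest in lambda constant UMIs in each library the log2 ratio of Iglc1 was 0.10, and with only that of T1 left out it was -3.07, whereas Iglv1 was at 1.5 and Iglv3 at 1.87 without both. Of the 9 secretion genes 8 were compared in plasma barcodes and none was past the rule. Of 3 octamer genes, for factors that bind immunoglobulin promoters and their coactivator Pou2af1, 2 were compared and 1, Pou2af1, was lower in T1 (log2 ratio -1.07). The 5 germinal centre markers compared in plasma barcodes were all lower in T1 as well (median log2 ratio -2.16). The part of the mixed plasma class of C in these values was not tested.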

How the data were processed

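Counts of UMIs per gene and barcode were deposited by the authors as whole numbers without normalization, for 3 libraries made with 10x Chromium 3′ V3.1 kits, per the labels' protocols. CASAVA 1.8, Cell Ranger 3.1.0 and Seurat 3.1.4 are listed in the submitters' processing notes, with GRCm38 as the build and no roles. Not given in the sources used here are aligner settings, the annotation and whether introns were counted. Every barcode deposited held at least 500 UMIs. The members, classes and gene lists were chosen with earlier results of these data known. One of the 5 genes of the germinal centre rule is not reported here.

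Barcodes were classed and assigned as the report states, in Python 3.11.15 with numpy 2.4.6, scipy 1.17.1 and pandas 2.3.3. Gene positions and exons were matched by ID to GENCODE M21, for all 160 genes, and compared with Biopython 1.88. Shares have exact Clopper-Pearson intervals at 95% and ratios exact conditional intervals. With 1 library per group there are no p-values, and an exact sign-flip test over 3 libraries could not go below 0.25. Segments were compared where both sides had at least 20 assigned barcodes. Named segments were the 5 most used of each class and library and up to 5 past the rule in each direction; genes were named from 6 lists. The rule of size and the assignment were tested on simulated data. Scrublet in scanpy 1.11.5 was used only as an alternative. Other alternatives changed the filters, thresholds, classes and counting of barcodes.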

Additional observations from a re-analysis of the deposited data

Results flagged for a closer look

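T barcodes, which no comparison uses, gave an Igkv segment more often in T1 than in C. The share was 35 of 1826 barcodes in T1 (1.92%, exact 95% interval 1.34% to 2.66%) and 15 of 1874 in C (0.8%, 0.449% to 1.32%), a ratio of 2.39 (1.27 to 4.72), and 6 of 2175 in T3 (0.276%). After thinning to 1000 UMIs it was 0.676% in T1 and 0.222% in C, with intervals that overlap. What lies behind it was not tested.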

How the results depend on the processing

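Of the values recomputed for the counts of segments and genes past the rule and the effective numbers, 173 stayed close to the reported value and 19 moved. Without the mitochondrial filter 1 segment (Igkv3-2) was past the rule between plasma and IgD-positive B barcodes of C. With germinal centre B barcodes allowed Ighd UMIs, counts became 1 for IgD-positive B barcodes of T1 against C (Igkv14-111, lower), 2 for germinal centre B against IgD-positive B of C (Igkv1-117 and Igkv9-120) and 1 for plasma against germinal centre B of C (Igkv1-117, lower). With segments compared from 5 barcodes they became 1 for IgD-positive B of T1 against C (Igkv6-13, lower), 1 for plasma against IgD-positive B of C (Igkv3-2), 2 for the same in T1 (Igkv10-94 and Igkv8-24) and 1 for plasma against germinal centre B of C. With Igkv genes compared from 20 UMIs, 30 of 34 were past the rule in plasma barcodes of T1 against C, 1 in IgD-positive B of T1 against C and 1 of T3 against C. Alternatives chosen after seeing the data follow. Without barcodes that held haemoglobin UMIs, the counts for T3 against C, T3 against T1 and germinal centre B against IgD-positive B of C became 0, and the effective number of IgD-positive B barcodes of T3 became 60, from 25 barcodes. In germinal centre B barcodes of C the only haemoglobin gene found was Hbb-bt. With plasma barcodes kept whatever their CD3 UMIs, 13 of 15 Igkv genes were past the rule, 0 segments between plasma and IgD-positive B of T1 and 1 between plasma and germinal centre B of C. With shared pairs counted once, the count for plasma against IgD-positive B of T1 became 0, because Igkv10-94 then had 9 barcodes and was no longer compared, at a ratio of 4.21. Requiring 3 UMIs and 2 times the second segment left too few IgD-positive and germinal centre B barcodes for any comparison with them. No paired analysis was possible because each group has 1 library.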

Other observations

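Barcodes with at least 20 Jchain UMIs that the CD3 rule left out numbered 44 in C, 28 in T1 and 3 in T3, and 32, 12 and 2 of them held exactly 1 CD3 UMI. An Igkv segment was assigned to 31, 23 and 2 of them, and they held 898, 651 and 73 Igkv UMIs. Igkv3-4 led in C with 4 barcodes and Igkv6-15 in T1 with 3. Other B barcodes of C, which have no Ighd UMI and fewer than 2 of the germinal centre genes, held family Igkv1 in 16 of 56 against 53 of 373 IgD-positive B barcodes (ratio 2.01, 1.07 to 3.57), and family Igkv6 in 1 of 56 against 51 of 373 (ratio 0.131, 0.00324 to 0.761). These were 2 of 13 families past the rule of size (15.4%), and in T1 none of 13 was. Family Igkv9 took 5 of 33 germinal centre B against 11 of 373 IgD-positive B barcodes in C (ratio 5.14, 1.4 to 16), 1 of 13 families (7.69%). The families were compared after values had been seen.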
